A study of Mus musculus with 12 samples.

Results

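The subject here is 10 genes of the Notch signalling pathway, measured by RNA-seq in mouse hippocampal mini-slices after chemically induced long-term potentiation (LTP). The rule names them as members of the pathway and uses no measured value: the ligand genes Dll1 and Jag1, the receptor genes Notch1, Notch2, Notch3 and Notch4, and the target genes Hes1, Hes5, Hey1 and Heyl. All 10 were found among the 41091 gene IDs of the count tables, and all 10 passed the filter on low counts in every comparison. The slices came from wild type male C57BL/6 mice aged 2 to 3 months, with the dentate gyrus trimmed away. LTP was induced chemically: slices first received forskolin (50 uM) alone for 5 min and then, over another 5 min, forskolin together with 30 mM KCl and 10 mM Ca2+. Control slices received 0.2% DMSO for 10 min, and slices were frozen 1 hr or 3 hr later. Each treatment has 3 libraries at each time, and libraries of the same number and time point are LTP and control slices of 1 animal. Different animals were assumed for the 2 times, so time after treatment and animal cannot be told apart. The libraries were made from slices in which RT-qPCR of activity-induced genes had first shown a response.

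Notch signalling passes between touching cells. A ligand of the Delta or Jagged family on 1 cell binds a Notch receptor on its neighbour, the receptor is cut first by an ADAM protease and then by gamma-secretase, and the freed intracellular domain enters the nucleus, where it joins the DNA-binding protein RBPJ and a Mastermind coactivator. Genes of the Hes and Hey families, which encode transcriptional repressors, are the classical targets. In the adult hippocampus the pathway is best known for keeping the neural stem cells of the dentate gyrus, and it is also active in neurons, astrocytes and blood vessels. Notch3 is a receptor of vascular mural cells and Notch4 one of endothelial cells.

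Library totals ran from 37118382 to 50815001 counts, so that 3 counts equal 0.0584 to 0.0791 CPM, the unit of level used here (counts over TMM-adjusted library sizes). Totals give counting error only. 1 hr control replicate 2, which the study's clustering set aside, is shown but was left out of the tests unless stated. It was the highest of the 6 libraries of 1 hr for 6 of the 10 genes and the lowest for 0, whereas over 17419 genes it was highest for 27.5% and lowest for 25.1%. Summed over 7 neuronal markers, levels lay between 5946 and 7592 CPM in every library. Both ends of that range were 3 hr LTP libraries, where the 3 hr controls had 6331 to 6413 CPM. Markers of dentate granule cells summed to between 162 and 293 CPM over 5 genes and were at 0 in no library, so the trimmed tissue still held RNA of that type. The dentate sums were 210 to 222 CPM in 1 hr control, 162 to 258 in 1 hr LTP, 187 to 224 in 3 hr control and 176 to 293 in 3 hr LTP slices. Each group has 3 animals at most, and the libraries are bulk tissue, in which fewer cells of a type and less RNA per cell cannot be told apart.

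**Figure D1:**
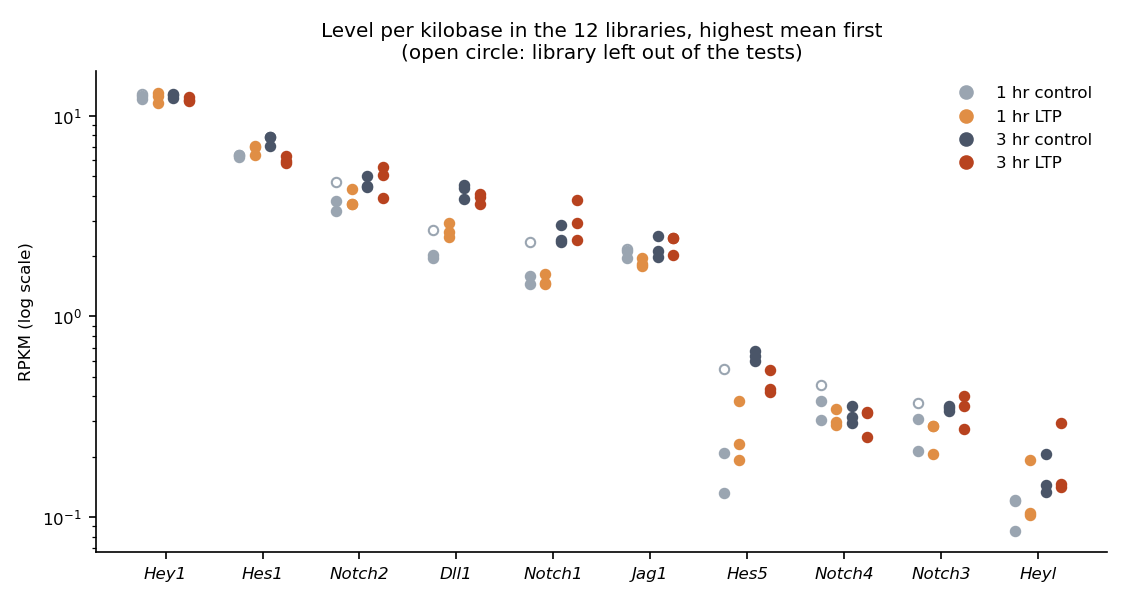
Level of each gene per kilobase of exon (RPKM, log scale) in the 12 libraries, coloured by group, with genes in order of their mean. Hey1 and Hes1 lay above the other genes in every library, whereas Hes5, Notch4, Notch3 and Heyl lay at or below 0.671 RPKM in every library.

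Per kilobase of exon, the target gene Hey1 was the most abundant of the 10. Its level was 12.4 ± 0.418 RPKM (mean ± SD, n = 12 libraries), at the 77.9th percentile of 18078 genes. Hes1, encoding an oscillating repressor of neuronal differentiation, followed at 6.67 ± 0.674 RPKM. Among the receptors Notch2 was the most abundant at 4.31 ± 0.682 RPKM, followed by Notch1 at 2.23 ± 0.739 RPKM. The ligands had intermediate levels, with Dll1 at 3.26 ± 0.911 RPKM and Jag1 at 2.11 ± 0.247 RPKM. Hes5, Notch4, Notch3 and Heyl were scarce, with means of 0.416, 0.330, 0.312 and 0.150 RPKM, and Heyl lay at the 6.82th percentile.

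The ranges over the 12 libraries separated this order at only a few places. Hey1 (11.6 to 12.9 RPKM) did not overlap Hes1 (5.82 to 7.86 RPKM), and Hes1 did not overlap Notch2 (3.35 to 5.55 RPKM). Notch2, Dll1 (1.95 to 4.52 RPKM), Notch1 (1.45 to 3.81 RPKM) and Jag1 (1.78 to 2.52 RPKM) each overlapped the next gene in the order. Jag1 lay wholly above Hes5 (0.133 to 0.671 RPKM), and Hes5, Notch4, Notch3 and Heyl again overlapped their neighbours. Hey1 was also the steadiest, with its highest library 1.12 times its lowest. Hes5 was the most variable, its highest library being 5.06 times its lowest, but it rested on 7 to 42 counts per library. The order by means also differed between groups: in the 1 hr controls used in the tests Jag1 (2.03 RPKM) lay above Dll1 (1.99 RPKM) and Notch1 (1.52 RPKM), and Hes5 (0.171 RPKM) lay below Notch4 (0.342 RPKM) and Notch3 (0.262 RPKM).

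By position on mm10, Notch1 spans chr2:26457903-26516663, Notch2 chr3:98013527-98150361, Notch3 chr17:32120820-32166852 and Notch4 chr17:34564268-34588503. Dll1 spans chr17:15367354-15376872 and Jag1 chr2:137081456-137116644. Hes1 spans chr16:30064384-30067796, Hes5 chr4:154960923-154962371, Hey1 chr3:8663359-8667256 and Heyl chr4:123233556-123249875. Genes on the opposite strand cover 31.8% of the exonic bases of Hes5, 20.5% of Dll1, 9.8% of Notch1 and 6.0% of Notch3, and a gene of the same strand covers 5.0% of Notch2. The sources do not say whether strand was used in counting, and the 4 genes with a partner on the opposite strand carry that uncertainty. The gene opposite Dll1, A930024N18Rik, had at most 2.04 CPM, and the gene opposite Hes5, Gm20421, had 2 to 9 counts in a library.

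RefSeq (GRCm38.p6) promoter windows of 250 bases before to 50 after the start were found for 7 of the 10 genes: Notch1, Notch2, Notch3, Notch4, Hes5, Jag1 and Dll1, the last with 2 windows. The Notch1 window and the first Dll1 window lie at starts inside the gene spans given above, not at their 5′ ends. The starts used for Jag1, Notch2 and Notch4 also lie inside the spans, but nearer the 5′ ends. For Jag1 the bases before the start are chr2:137116521-137116770 on the minus strand, where the span ends at 137116644. All windows were searched on both strands for TGGGAA, the core bound by RBPJ, and for TGACG, the core of the cyclic AMP response element (forskolin raises cyclic AMP). Hes5 was the only one of the 7 with the RBPJ core, which occurred at 226 and at 82 bases before its start, and both matches also held the longer form GTGGGAA. The core is present in 25.6% and the longer form in 6.38% of all 32851 windows. The 250 bases before the start of Hes5, at chr4:154960673-154960922 on the plus strand, are shown because this is the scarce target whose level differed most between the time points, with the RBPJ core in capitals on either strand.
Hes5: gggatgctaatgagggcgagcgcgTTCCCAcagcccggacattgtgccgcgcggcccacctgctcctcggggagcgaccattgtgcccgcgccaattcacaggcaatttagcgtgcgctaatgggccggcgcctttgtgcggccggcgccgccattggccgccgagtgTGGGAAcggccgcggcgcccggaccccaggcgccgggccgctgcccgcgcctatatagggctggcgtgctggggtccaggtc
The letters TGACG occurred in 2 of the 7 genes, in Notch3 at 184 and in Jag1 at 167 bases before the start, and in 20.8% of all windows. The surrounding 30 bases on the minus strand, at chr17:32167057-32167086 for Notch3 and chr2:137116670-137116699 for Jag1, are given in the direction of the gene, with TGACG on the other strand and hence its reverse complement in capitals.
Notch3: ggatacctgtcaCGTCAcgcaggttaagcc
Jag1: caggcgggcacgCGTCAttgtgttacctgc
The full element TGACGTCA was in none of the member windows and in 1.79% of all windows. The N box CACNAG, which Hes proteins bind, was in windows of Notch1, Notch2, Notch3 and Dll1 and in 42.5% of all windows, and the E box CANNTG was in those of Notch4, Hes5, Jag1 and Dll1 and in 72.3% of all windows. A match describes only these letters in these windows.

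**Figure D2:**
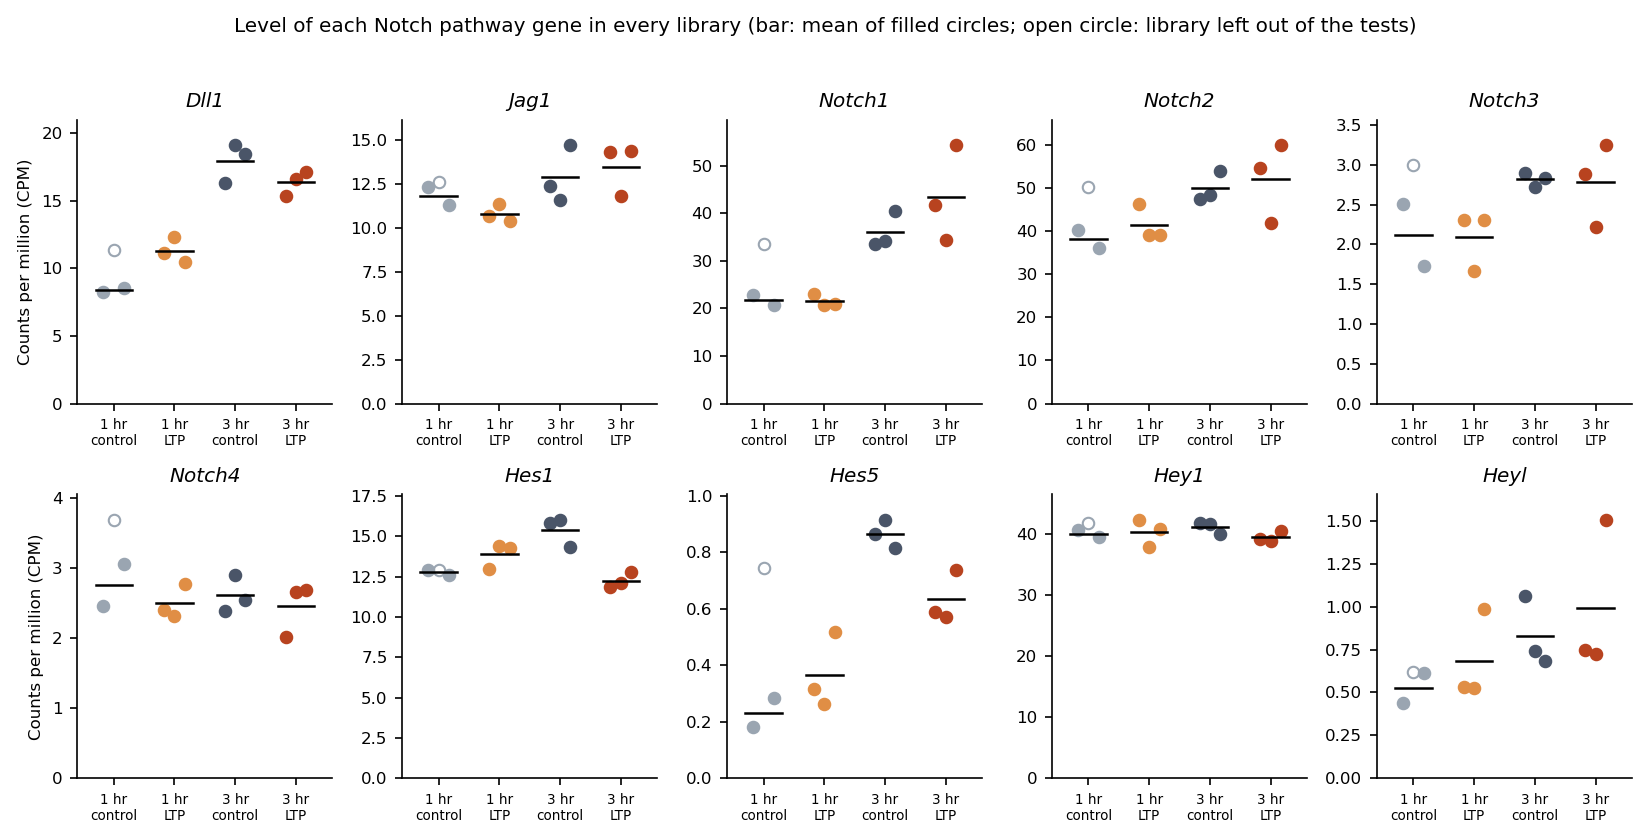
Level in CPM of the 10 genes in every library, by group, with the mean as a bar and the library left out of the tests as an open circle. Dll1, Notch1 and Hes5 were higher in all 3 hr libraries than in the tested 1 hr libraries, and Hes1 was lower in the 3 hr LTP libraries than in the 3 hr control libraries.

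The first comparison was between LTP and control slices 1 hr after induction. At this time 0 of the 10 Notch genes were called differentially expressed by the quasi-likelihood test of edgeR (adjusted p under 0.1 and fold change over 1.2), and 0 were called by DESeq2 or limma-voom. Of all 17736 genes tested 0.789% were called. At an unadjusted p under 0.05 the count was 1, Dll1, where 6.71% of all genes were below that value.

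Dll1, encoding a Delta ligand, had 8.24 and 8.53 CPM in control replicates 1 and 3 and 11.2, 12.3 and 10.5 CPM in LTP replicates 1, 2 and 3. The tested groups did not overlap, but the set-aside control library had 11.3 CPM, within the range of the LTP libraries. The log2 fold change was 0.44 (SE 0.12, 95% interval 0.18 to 0.70) with an edgeR adjusted p of 0.209. Across the alternatives its adjusted p lay between 0.0784 and 0.834. It was called without 1 hr LTP replicate 3 (adjusted p = 0.0791) and without a filter on low counts (adjusted p = 0.0784), and with all 6 libraries its log2 fold change was 0.28.

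Hes1 had 12.94 and 12.60 CPM in the control libraries and 12.95, 14.4 and 14.3 CPM in the LTP libraries, so that the groups were separated only by the second decimal. Its log2 fold change was 0.13 (SE 0.11, edgeR adjusted p = 0.92). Hes1 and Dll1 were the 2 of the 10 genes whose groups did not overlap, against 22.6% of all genes tested, and in both LTP was higher, as in 10.6% of all genes. Hes5 had 0.181 and 0.284 CPM in the controls and 0.316, 0.264 and 0.517 CPM after LTP, on 7 to 22 counts a library. That gives it a log2 fold change of 0.66 with an interval from -0.47 to 1.78, too wide to detect a change of this size at this depth. With the set-aside library, which had 0.745 CPM, the Hes5 value turned to -0.16.

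The receptors lay close together at 1 hr. Notch1 had 22.7 and 20.6 CPM in the controls and 23.1, 20.7 and 20.97 CPM after LTP, a log2 fold change of 0.00515 with an interval from -0.20 to 0.21. The set-aside control library stood well above these at 33.5 CPM, and with it the Notch1 value was -0.24 (edgeR adjusted p = 0.689). Notch2 had a log2 fold change of 0.13 (interval -0.07 to 0.33), Notch3 one of -0.00142 (interval -0.52 to 0.52) and Notch4 one of -0.13 (interval -0.56 to 0.30). Jag1, the Jagged ligand, had -0.12 (interval -0.36 to 0.12). Hey1 had 0.02 (interval -0.15 to 0.19) and Heyl 0.38 (interval -0.51 to 1.27). The intervals of the vascular receptors and of Heyl were the widest of these and that of Hey1 the narrowest. Summed over 9 markers, the level of mural cell genes was 198 to 212 CPM in the 1 hr controls and 178 to 196 CPM after LTP, with 1 of 9 called lower, and endothelial genes summed to 130 to 142 and 114 to 122 CPM over 8 markers, with 0 of 8 called. Of all 17736 genes tested 2 were called lower. An unadjusted p under 0.05 was found for 4 of the 9 mural and 3 of the 8 endothelial markers, beside 6.71% of all genes. The median log2 fold change was -0.4 over the mural markers (range -0.8 to 0.04) and -0.2 over the endothelial ones (range -0.37 to -0.13). The part of these vascular cells in the values of Notch3, Notch4 and Heyl was not tested.

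**Figure D3:**
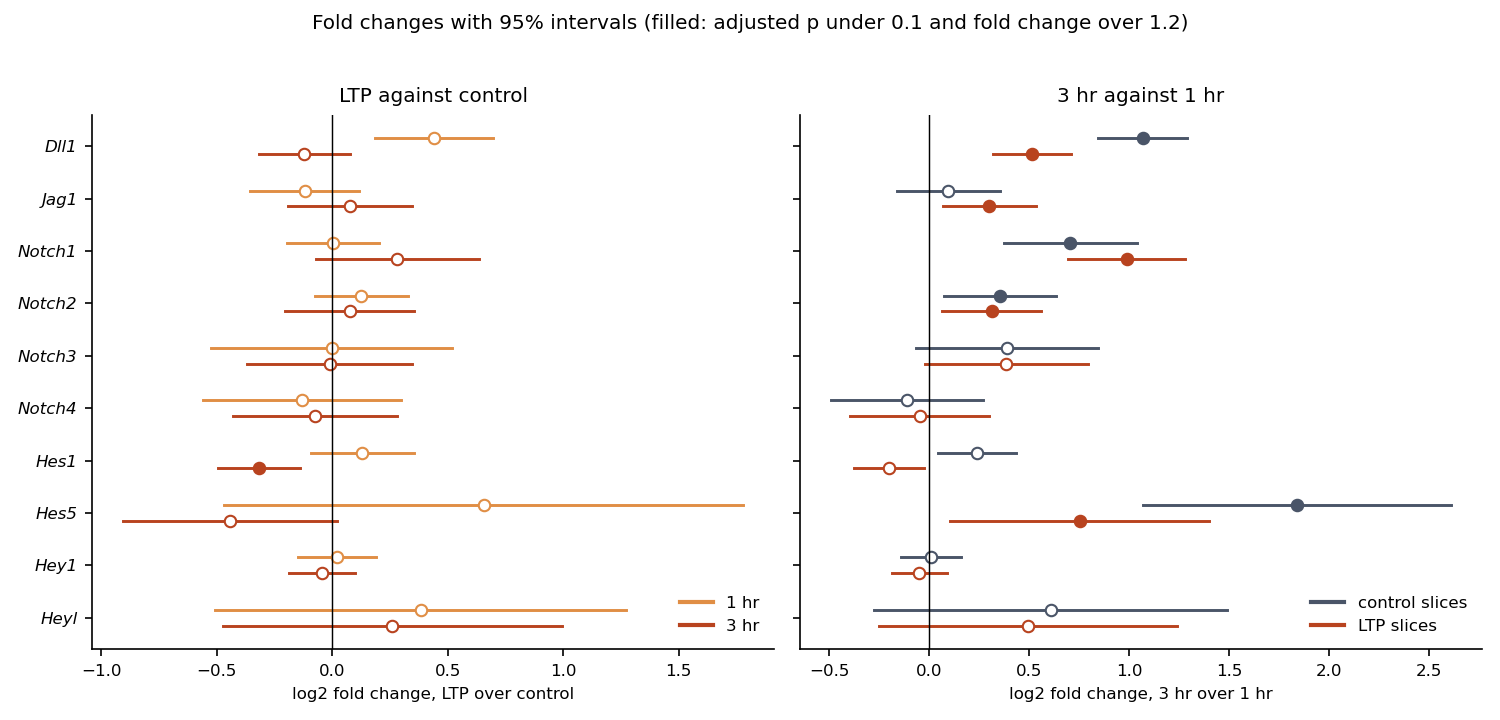
Log2 fold changes (points) with 95% intervals (lines) for LTP over control at 1 hr and 3 hr, left, and for 3 hr over 1 hr in control and in LTP slices, right. Filled points passed the test: only Hes1 at 3 hr on the left, and 4 genes in control slices and 5 in LTP slices on the right.

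At 3 hr, 1 of the 10 genes was called differentially expressed, and it fell. Hes1 had 15.9, 16.0 and 14.3 CPM in control replicates 1, 2 and 3 and 11.9, 12.1 and 12.8 CPM in the LTP replicates. All LTP libraries lay below all controls, and the LTP slices of each animal lay below its own control slices. Hes1 fell by 0.32 on the log2 scale (SE 0.08, 95% interval -0.49 to -0.14), a level 0.803 times that of control, with an edgeR adjusted p of 0.0625. Of all 17508 genes tested 6.6% were called, so 1 of 10 is close to the background, and 1.53% were called lower. The Hes1 call was lost (adjusted p between 0.107 and 0.273) without control replicate 1, 2 or 3 or without LTP replicate 1, while the value stayed between -0.36 and -0.29. The same omissions cut the calls over all genes from 1155 to between 228 and 415. Over every alternative the adjusted p of Hes1 ran from 0.03 to 0.273.

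Hes5, the other Hes gene, moved the same way in value without passing the test. It had 0.865, 0.915 and 0.817 CPM in control slices and 0.591, 0.571 and 0.739 CPM after LTP, on 26 to 42 counts a library. The groups did not overlap, and the log2 fold change was -0.44 (SE 0.20, interval -0.90 to 0.02, edgeR adjusted p = 0.269). Hes1 and Hes5 were the 2 of the 10 genes with separate groups, against 27% of all genes, and in both LTP was lower, as in 14.1% of all genes. Of the other member genes of this family, Hey1 had a log2 fold change of -0.04 with a narrow interval from -0.19 to 0.10, and Heyl one of 0.26 with an interval from -0.47 to 0.99. Heyl reached 1.504 CPM in 3 hr LTP replicate 3 and stayed between 0.681 and 1.06 CPM in the other 3 hr libraries.

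Among the receptors Notch1 had the largest value at 3 hr. It had 33.5, 34.1 and 40.5 CPM in control slices and 41.7, 34.4 and 54.2 CPM after LTP, so the groups overlapped. Its log2 fold change was 0.28 (SE 0.16, interval -0.07 to 0.63, edgeR adjusted p = 0.349). Within animals 1, 2 and 3 the log2 ratio of LTP to control was 0.32, 0.01 and 0.42, above 0 in each. The fold change of Notch1 rested on single LTP libraries: without replicate 3 it was 0.08, and without replicate 2 it was 0.43 and Notch1 was called (adjusted p = 0.0525, in a range of 0.0525 to 0.722 over the alternatives). With offsets for GC content and exonic length the value was 0.11. Notch1 has 56.4% GC and 14232 exonic bases, the longest of the 10.

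Notch2 had 47.5, 48.3 and 53.9 CPM in control and 54.5, 42.0 and 59.9 CPM in LTP slices, again with LTP replicate 2 lowest. Its log2 fold change was 0.08 (interval -0.20 to 0.36) and -0.04 with the same offsets. Notch3 had -0.01 (interval -0.37 to 0.35) and Notch4 -0.07 (interval -0.43 to 0.28). Both ligands overlapped between the groups. Dll1 had 16.3, 19.1 and 18.5 CPM in control and 15.4, 16.6 and 17.2 CPM in LTP slices, a log2 fold change of -0.12 (interval -0.32 to 0.08). Jag1 had one of 0.08 (interval -0.19 to 0.35). Mural and endothelial markers were called in 0 of 9 and 0 of 8 cases at 3 hr by edgeR, with 1 of each at an unadjusted p under 0.05. Markers of adult neural progenitors summed to 91.8 to 96.0 CPM in 1 hr control, 95.7 to 122.6 CPM in 1 hr LTP, 107.7 to 113.8 CPM in 3 hr control and 134.3 to 139.1 CPM in 3 hr LTP slices, over 6 markers of which none was at 0. After LTP, 1 of the 6 was called higher at 1 hr (Sox2, 0.48) and 1 at 3 hr (Sox11, 0.56), while Nes had the lowest values of the 6, -0.10 and -0.15. An unadjusted p under 0.05 was found for 2 of the 6 at 1 hr and 3 at 3 hr, with medians of 0.3 and 0.21 on the log2 scale. Markers of ependyma and choroid plexus summed to 12.4 to 17.4 CPM in 1 hr control and 18.7 to 23.5 CPM in 1 hr LTP slices over 6 genes, of which Ttr and Kcne2 were at 0 in a library, with 1 of 5 tested called higher (Ccdc153, 0.81) and 4 of 5 at an unadjusted p under 0.05. At 3 hr they summed to 15.3 to 20.1 and 13.1 to 20.2 CPM, with 0 of 4 called by edgeR and 0 at that unadjusted p. Oligodendrocyte lineage markers summed to 4341 to 5269 CPM in 1 hr control and 5102 to 6143 CPM in 1 hr LTP slices, with 0 of 7 called by edgeR and 4 at an unadjusted p under 0.05, and 0 of 7 at that p at 3 hr. Astrocyte markers had 0 of 8 called by edgeR at either time and 1 of 8 at that p at each, Sox9 (0.38) at 1 hr and Aqp4 (-0.28) at 3 hr. The part of these lists in the values of Hes1, Hes5 and Dll1 was not tested.

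**Figure D4:**
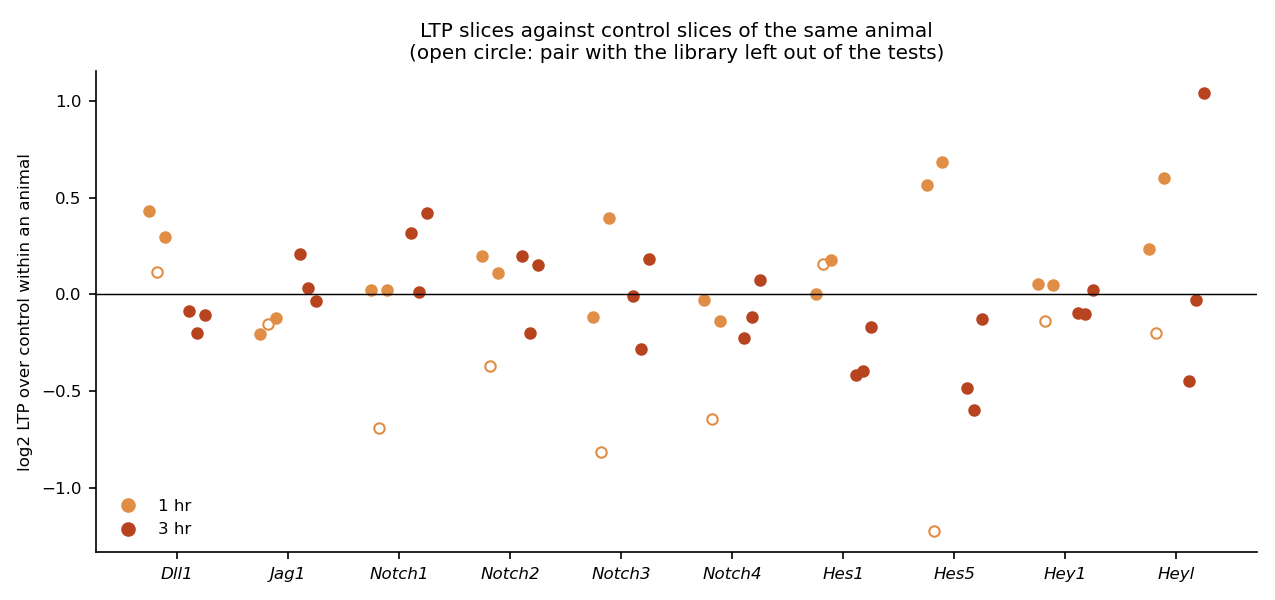
Log2 ratio of LTP to control slices within each animal for the 10 genes at 1 hr and 3 hr, with the pair that holds the set-aside library as an open circle. For Dll1 and Hes1 the ratios were above 0 at 1 hr and below 0 at 3 hr in all animals, for Jag1 and Notch4 they were below 0 in all animals at 1 hr, and at 3 hr they were above 0 in all animals for Notch1 and below 0 for Hes5.

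Whether the response to LTP differed between the time points was tested as an interaction in 1 model of the 4 groups. Of the 10 genes 0 were called by edgeR (adjusted p under 0.1), where 0.0592% of all genes were called, and 3 had an unadjusted p under 0.05, where 6.59% of all genes had one. DESeq2 called 1, Dll1, and limma-voom 0. The 3 genes were Dll1, Hes1 and Hes5, and in each the 3 hr effect was the lower.

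For Dll1 the ratio of LTP to control within animals 1, 2 and 3 was 0.43, 0.12 and 0.30 at 1 hr and -0.08, -0.20 and -0.11 at 3 hr on the log2 scale. The difference between the effects was -0.55 (SE 0.14, interval -0.85 to -0.26, edgeR adjusted p = 0.377). The adjusted p of the DESeq2 call was 0.0834, and the range over all alternatives was 0.0834 to 0.888. For Hes1 the ratios were 0.00111, 0.16 and 0.18 at 1 hr and -0.42, -0.40 and -0.17 at 3 hr. Its difference was -0.44 (SE 0.12, interval -0.70 to -0.18, edgeR adjusted p = 0.424). For Hes5 the difference was -1.09 (SE 0.48, interval -2.11 to -0.07, edgeR adjusted p = 0.734), but the animal with the set-aside library had a 1 hr ratio of -1.22 where the others had 0.57 and 0.68. With that library included the difference of Hes5 was -0.28, and without 1 of the other libraries it lay between -1.49 and -0.74. The other 7 genes had differences between -0.11 for Heyl and 0.29 for Notch1, with intervals that included 0.

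The 3 hr and 1 hr slices were next compared within each treatment. In control slices, which had no LTP induction, 4 of the 10 genes were higher at 3 hr and 0 lower. These were Hes5, Dll1, Notch1 and Notch2. Of all 18584 genes tested 32.8% were called in this comparison, with 16.1% of the genes tested higher and 16.8% lower. In LTP slices the 5 genes Notch1, Dll1, Hes5, Jag1 and Notch2 were higher at 3 hr and 0 lower, where 35.9% of all genes were called with 18.6% higher and 17.3% lower. As a median over the 10 genes the log2 fold change was 0.37 in control and 0.35 in LTP slices, beside -0.019 and 9.5e-05 over all genes. This balance depends in part on the scaling. Without offsets the values below 0 were Notch4 (-0.11) in control slices and Notch4 (-0.05), Hey1 (-0.05) and Hes1 (-0.20) in LTP slices, not called. With offsets for GC content and length 3 of the 10 values in control slices (Notch3, Notch4, Hey1) were below 0. In LTP slices 4 of the 10 (the same 3 and Hes1) were below 0, and Notch4 in both and Hes1 in LTP slices were called lower. The groups did not overlap for 7 of the 10 genes in control slices and for 5 in LTP slices, against 60.7% and 44.9% of all genes. All 7 were higher at 3 hr in control slices, as were 31.5% of all genes. Of the 5 in LTP slices Hes1 was lower, as were 21.3% of all genes, and the other 4 were higher, as were 23.6%. The 2 comparisons share animals, and each confounds time with animal.

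Dll1 showed the time difference with the smallest p in control slices. Its controls rose from 8.24 and 8.53 CPM at 1 hr to 16.3, 19.1 and 18.5 CPM at 3 hr, 2.1-fold, with a log2 fold change of 1.07 (SE 0.11, edgeR adjusted p = 4.12e-05). In LTP slices it rose by 0.51 (SE 0.09, edgeR adjusted p = 0.000827), from a 1 hr range of 10.5 to 12.3 CPM to a 3 hr range of 15.4 to 17.2 CPM. Over the alternatives the log2 fold change of Dll1 ran from 0.86 to 1.16 in control and from 0.30 to 0.61 in LTP slices. The 3 hr libraries of both treatments lay above every 1 hr library, the set-aside one included.

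Notch1 rose in both treatments as well. Its level in controls went from 22.7 and 20.6 CPM to 33.5, 34.1 and 40.5 CPM, a log2 fold change of 0.70 (SE 0.15, edgeR adjusted p = 0.00418). In LTP slices it went from 20.7 to 23.1 CPM at 1 hr to 34.4 to 54.2 CPM at 3 hr, a log2 fold change of 0.99 (SE 0.14, edgeR adjusted p = 0.000167). The set-aside 1 hr control, at 33.47 CPM, was level with the lowest 3 hr control at 33.46 CPM, and with it the control value was 0.49 (adjusted p = 0.0435). Offsets for GC content and length lowered the Notch1 values to 0.46 in control and 0.62 in LTP slices, and both remained called.

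Hes5 had the largest fold change of the 10 in control slices. Its controls had 0.181 and 0.284 CPM at 1 hr, or 7 and 12 counts, and 0.865, 0.915 and 0.817 CPM at 3 hr, or 40 to 42 counts. The log2 fold change was 1.84 (SE 0.36, interval 1.07 to 2.61, edgeR adjusted p = 0.00204). The set-aside 1 hr control had 36 counts and 0.745 CPM, and with it the value was 1.05 (adjusted p = 0.0551). In LTP slices Hes5 went from 0.264 to 0.517 CPM at 1 hr to 0.571 to 0.739 CPM at 3 hr, a log2 fold change of 0.75 (SE 0.30, edgeR adjusted p = 0.0649). That call was lost without 1 hr LTP replicate 1 or 2, without 3 hr LTP replicate 3, with DESeq2, without a filter on low counts, with all libraries and with GC and length offsets, where the log2 fold change was 0.36. The adjusted p over these and the other alternatives ran from 0.019 to 0.376.

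Notch2 and Jag1 were called with smaller values. Notch2 had 40.3 and 36.1 CPM in 1 hr controls and 47.5 to 53.9 CPM in 3 hr controls, a log2 fold change of 0.36 (SE 0.13, edgeR adjusted p = 0.0528). In LTP slices its groups overlapped, at 39.0 to 46.3 CPM at 1 hr and 42.0 to 59.9 CPM at 3 hr, with a log2 fold change of 0.31 (SE 0.12, edgeR adjusted p = 0.0482). GC and length offsets ended both Notch2 calls, at 0.18 and 0.05, and including the set-aside library ended the control call at 0.24. So did leaving out replicate 3 of the 1 hr or 3 hr controls for the control value, and leaving out 3 hr LTP replicate 1 or 3 or 1 hr LTP replicate 2 or 3 for the LTP value. The adjusted p over the alternatives of Notch2 ran from 0.00389 to 0.235 in control and from 0.00142 to 0.617 in LTP slices. Jag1 had 10.7, 11.3 and 10.4 CPM in 1 hr LTP and 14.3, 11.8 and 14.4 CPM in 3 hr LTP slices, a log2 fold change of 0.30 (SE 0.11, edgeR adjusted p = 0.0434). Its call was lost without 3 hr LTP replicate 1 (adjusted p = 0.134) or 3 (adjusted p = 0.114), and the lowest adjusted p was 0.00963. In control slices the Jag1 value was 0.10 (interval -0.16 to 0.36).

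Hes1 had values of opposite sign in the 2 treatments. It was 0.24 (SE 0.09, edgeR adjusted p = 0.0587) in control slices, which had 12.6 to 12.9 CPM at 1 hr and 14.3 to 16.0 CPM at 3 hr. In LTP slices it was -0.20 (SE 0.08, edgeR adjusted p = 0.0702), with 12.95 to 14.4 CPM at 1 hr and 11.9 to 12.8 CPM at 3 hr. Neither reached the fold change minimum of 1.2, and the test of the difference between them is the interaction given above. The control value passed with all 6 libraries of 1 hr (log2 fold change 0.26, adjusted p = 0.0274), with total-count scaling and with either other filter on low counts. It also passed without 3 hr control replicate 3 (0.31), 1 hr control replicate 1 (0.30) or 3 hr LTP replicate 3 (0.26), and with GC and length offsets the LTP value did so (-0.33, adjusted p = 0.00766).

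Hey1 did not move detectably, at 0.00862 (interval -0.14 to 0.16) in control and -0.05 (interval -0.19 to 0.09) in LTP slices. Heyl had 0.61 (interval -0.27 to 1.49) and 0.49 (interval -0.25 to 1.24). Notch3 had 0.39 in both treatments (edgeR adjusted p = 0.183 in control and 0.129 in LTP slices), and with GC and length offsets it had -0.02 and -0.07. Without 1 hr control replicate 1 Notch3 was called at 0.72 in control slices, without 3 hr LTP replicate 2 it was called at 0.53 in LTP slices, and Heyl was called at 0.89 in LTP slices without 1 hr LTP replicate 3 (edgeR adjusted p = 0.0746, 0.0378 and 0.0902). Notch4 had -0.11 and -0.05, but with those offsets -0.65 (adjusted p = 0.031) and -0.57 (adjusted p = 0.0333), when it was called lower in both. Mural markers summed to 151 to 158 CPM in 3 hr controls, below the 198 to 212 CPM of 1 hr controls, with 7 of 9 called lower. Endothelial markers summed to 109 to 114 CPM, below 130 to 142 CPM, with 4 of 8 called lower. In LTP slices mural markers summed to 153 to 157 CPM at 3 hr, below 178 to 196 CPM at 1 hr, with 1 of 9 called higher and 3 lower, whereas the endothelial sums overlapped (108 to 126 and 114 to 122 CPM), with 3 of 8 called higher and 2 lower. None of the 17 vascular markers was at 0 in any library. Markers of astrocytes, a cell type that expresses Notch receptors, summed to 4884 to 5096 CPM in 1 hr and 4959 to 5132 CPM in 3 hr controls, with 2 of 8 called higher and 1 lower. Neuronal markers summed to 6913 to 7376 CPM in 1 hr and 6331 to 6413 CPM in 3 hr controls, with 3 of 7 called lower, and 2 of 7 were called lower in LTP slices. Of 6 markers of CA1 and CA3 pyramidal cells 3 were called higher and 1 lower in each treatment. Of 5 tested ependymal and choroid plexus markers 2 were called lower in LTP slices. Of the 6 progenitor markers 2 were called higher and 1 lower at 3 hr in control slices, and 1 higher in LTP slices. Microglial markers were lower at 3 hr in both treatments, with 6 of 7 called lower in each and sums in controls of 282 to 305 CPM at 1 hr and 205 to 235 CPM at 3 hr. Markers of the oligodendrocyte lineage summed to 4341 to 5269 and 5907 to 7244 CPM in controls, with 4 of 7 called higher, and 3 of 7 were called higher in LTP slices. The part of these cell types in the Notch values was not tested.

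Around these 10 genes, 67 other genes of the pathway were followed, and their counts are given beside those of all genes. At 1 hr, 0 of the 62 tested were called by edgeR or limma-voom, 1 by DESeq2, and 5 had an unadjusted p under 0.05, beside 0.789% called and 6.71% under that p over all genes. With the animal as a block, 2 were called by edgeR: Nrarp, a target that feeds back on Notch signalling (log2 fold change 0.59, adjusted p = 0.0284), and Tle3, a Groucho-type corepressor (0.34, adjusted p = 0.0667). Under that block the calls over all 17736 genes went from 140 to 206. Without 1 hr LTP replicate 3 the calls were 2, Dlk1 and Ep300, while those over all genes went from 140 to 344.

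**Figure D5:**
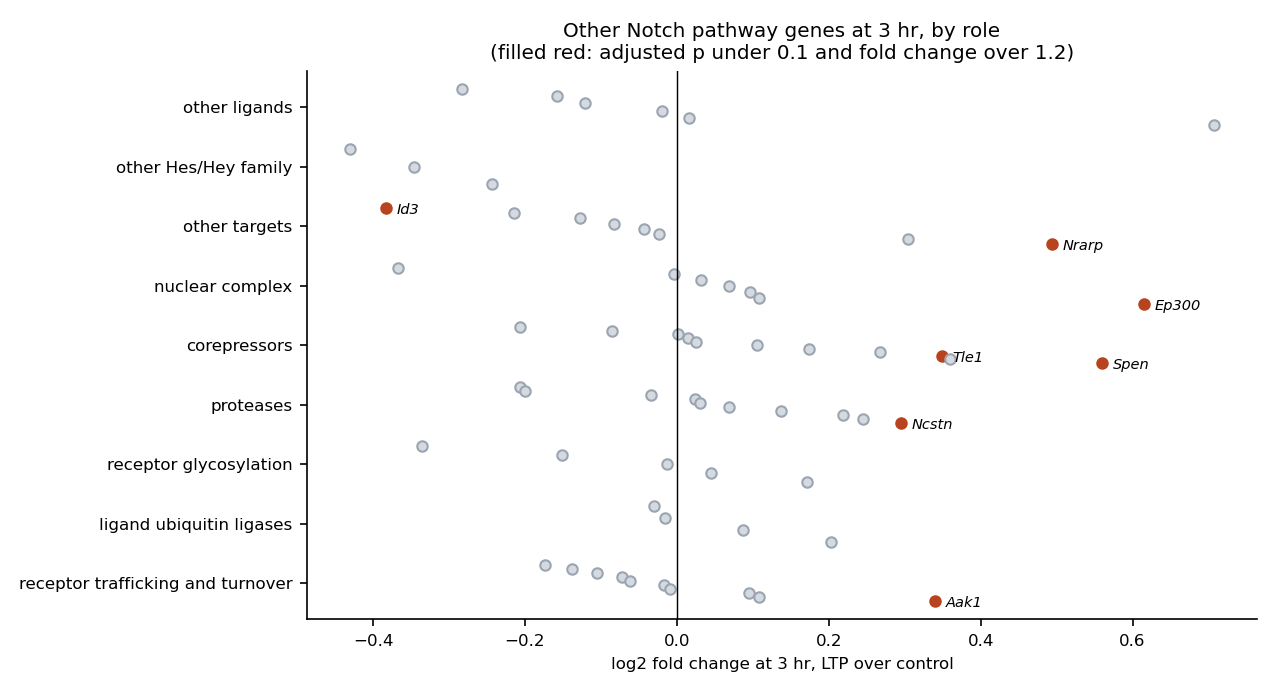
Log2 fold change of LTP over control at 3 hr for the 64 tested genes of the wider pathway list, each a point, grouped by role. The 7 genes that passed the test are named: 6 lay above 0 and only Id3 lay below it.

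At 3 hr, 6 of the 64 tested pathway genes rose and 1 fell, 10.9% beside 6.6% of all genes (5.07% higher and 1.53% lower), and the median log2 fold change was -0.0011 beside -0.0025 over all genes. In the nucleus, Ep300, the histone acetyltransferase recruited with Mastermind, rose from 43.7 ± 3.69 to 66.4 ± 5.01 CPM (SD, n = 3 each), a log2 fold change of 0.62 (SE 0.09, edgeR adjusted p = 0.00837). The corepressor gene Spen, whose product represses RBPJ targets, had a log2 fold change of 0.56 (edgeR adjusted p = 0.0762) and Tle1 one of 0.35 (adjusted p = 0.0323), so that 2 of 11 corepressors rose. The feedback target Nrarp rose from 7.93 ± 0.171 to 11.1 ± 1.07 CPM, a log2 fold change of 0.49 (SE 0.09, adjusted p = 0.0276). Id3, encoding an inhibitor of bHLH factors, fell from 17.0 ± 0.578 to 12.9 ± 1.30 CPM, by 0.38 on the log2 scale (adjusted p = 0.0575).

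Ncstn, a subunit of gamma-secretase, had a log2 fold change of 0.29 (edgeR adjusted p = 0.0949), and Aak1, a kinase of endocytosis, one of 0.34 (adjusted p = 0.0464). With GC and length offsets Aak1 was at 0.12 (adjusted p = 0.274) and was the only one of the 7 calls to be lost under those offsets. The Ncstn call was lost without a filter on low counts (adjusted p = 0.1159). Without 3 hr LTP replicate 3 the calls of Ncstn (0.22, adjusted p = 0.1577) and Aak1 (0.26, below the fold change minimum) were lost. Only Ep300 was still called when control replicate 1, 2 or 3 or LTP replicate 1 was left out, the log2 fold change being 0.57 to 0.69. The values of the other 6 changed little under these omissions, for example 0.48 to 0.51 for Nrarp, -0.45 to -0.36 for Id3 and 0.28 to 0.37 for Tle1, and the calls over all genes were the 228 to 415 given for Hes1. The other ligands, the Hes and Hey relatives, the glycosyltransferases and the ligand ubiquitin ligases had 0 calls at 3 hr by edgeR. In value the 3 tested Hes and Hey relatives lay below 0, with log2 fold changes of -0.35 for Hes6 (unadjusted p = 0.0102, edgeR adjusted p = 0.115), -0.24 for Hey2 and -0.43 for Hes7, and the groups of Hes6 and Hey2 did not overlap, as in 27% of all genes (14.1% with LTP lower). With the animal as a block the calls in the list were 10, the additional ones being Hes6 (-0.34, edgeR adjusted p = 0.0937), the glycosyltransferase gene Lfng (-0.34, adjusted p = 0.062) and the corepressor gene Tle2 (0.35, adjusted p = 0.0557). Under that block the calls over all 17508 genes went from 1155 to 1662. The interaction gave 0 calls in the list by edgeR, DESeq2 or limma-voom, with 6 of 64 at an unadjusted p under 0.05, where 6.59% of all genes were.

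Between the time points 22 of the 64 genes were higher and 2 lower at 3 hr in control slices, 37.5% beside 32.8% of all genes, with a median of 0.23. In LTP slices 26 were higher and 4 lower, 46.9% beside 35.9%, with a median of 0.20, but with GC and length offsets 16 of the 64 were called, beside 4908 of 18584 over all genes. The control calls with the smallest p were Id3 (0.95), the ligand-like gene Dlk2 (0.93) and the gamma-secretase subunit gene Aph1a (0.63) upward, and the corepressor Ncor1 (-0.49) and Id4 (-0.55) downward. In LTP slices they were Dlk2 (0.84), the ubiquitin ligase genes Neurl1b (0.59) and Dtx2 (0.74) upward, and Id4 (-0.71), Ncor1 (-0.36) and the ubiquitin ligase subunit Fbxw7 (-0.31) downward. All of these had edgeR adjusted p values of 0.00207 or less.

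For each of the 6 genes called in any comparison, the genes with the most similar pattern over the 12 libraries were found among 14184 others (14185 for Hes5) by the root mean square difference of centred log2 CPM. Hes1 was nearest to Nrbf2 (0.07) and Dyrk3 (0.07), where the median over all genes was 0.22, and both stayed nearest without the set-aside library. Dll1 was nearest to the clock repressor gene Cry1 (0.09) and to the amino acid transporter gene Slc38a2 (0.12), beside a median of 0.43, and Cry1 stayed nearest without that library. Notch1 was nearest to Rai1 (0.08) and Adgrb1 (0.09), but without the set-aside library to Gigyf1 and Lmtk3. Notch2 was nearest to Rpap1 (0.06) and Mark2 (0.07), and Jag1 to Brpf1 (0.06) and Map4k2 (0.07), with Mark2 and Brpf1 still among the nearest without that library. Hes5, at its low counts, had the most distant neighbours of the 6, the nearest being Rbm38 (0.25) and Asap3 (0.25), and without that library Pim3 (0.17) and Ndufaf8 (0.22).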

How the data were processed

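RNA-seq counts of 12 libraries were analysed. Per the labels and the study's methods, libraries were made with a stranded total RNA kit after ribosomal RNA depletion, and the authors aligned reads with STAR to GRCm38/mm10 and deposited raw counts per gene in 1 table per time point. The labels also name DESeq2. Gene symbols, exonic lengths and positions came from GENCODE release M21 (40217 of 41091 gene IDs matched, 874 did not), and promoter sequences from RefSeq.

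The members and lists were chosen with earlier results of these data known. Tests were run in edgeR 4.0.16 (R 4.3.3), as quasi-likelihood F tests with filterByExpr, TMM and Benjamini-Hochberg adjustment over all genes tested, with calls at adjusted p under 0.1 and fold change over 1.2, both from the methods of the paper. The time points were fitted separately, without an animal term and without 1 hr control replicate 2, which the study's clustering set aside, so 1 hr has 5 libraries and 3 hr has 6. The interaction (no fold change minimum) and the time comparisons used 1 model of the 4 groups with 11 libraries. SE came from the F statistic. CPM and RPKM use TMM-scaled library sizes, and log2 ratios within animals used a pseudocount of 0.1 CPM. All 10 members are named. 1 gene of the pathway list is not reported here. From the others, all calls in the LTP comparisons or the interaction are named, and in each time comparison the 3 smallest p values per direction.

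Libraries of an animal are paired by the labels. Their deviations from group means correlated at -0.015, -0.16 and 0.075 for animals 1, 2 and 3 at 1 hr and at 0.038, -0.028 and 0.22 at 3 hr. Replicates differed beyond counting noise, with chi-square divided by its degrees of freedom between 9.49 and 85.6. The highest value was that of 3 hr LTP replicates 2 and 3, which were kept, and the pairs with the set-aside library had 47 and 63.3. Intervals cover the spread between libraries. Alternatives were DESeq2 1.42.0, limma-voom (limma 3.58.1), other scalings and filters, an animal block, per-library offsets for GC content and length (splines with 5 degrees of freedom), all libraries, an adjusted p of 0.05, the 4 group model for the LTP comparisons, and leaving out each library. The fits were also run on simulated counts, with the same spread for every gene and changes larger than most given here. That run did not cover small changes or changes in scarce genes.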

Additional observations from a re-analysis of the deposited data

Results flagged for a closer look

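For Hes1 and Dll1 the LTP slices of every animal lay above the control slices at 1 hr and below them at 3 hr. The change of the LTP effect was -0.44 for Hes1 and -0.55 for Dll1 on the log2 scale, and neither passed the edgeR interaction test (adjusted p = 0.424 and 0.377). For Hes1 the direction at 1 hr rests in animal 1 on a ratio of 0.00111.

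In the 1 hr control library that the tests left out, 6 genes lay above every other library of 1 hr. Notch1 had 33.47 CPM where the others reached 23.08, Notch2 50.31 against 46.28, Notch3 3 against 2.505, Notch4 3.682 against 3.055, Hes5 0.7447 against 0.5172 and Jag1 12.6 against 12.32. Over 17419 genes this library was the highest for 27.5%.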

How the results depend on the processing

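The direction of the calls of Hes1 at 3 hr and of Dll1, Notch1, Notch2, Hes5 and Jag1 over time held under every alternative run. The number of members called moved from 0 to 1 at 1 hr without a filter on low counts (Dll1), from 1 to 0 at 3 hr at an adjusted p under 0.05, and from 0 to 1 in the interaction with DESeq2 (Dll1). Leaving out 1 library gave 0 to 1 members at 1 hr, 0 to 2 at 3 hr and 2 to 6 in LTP slices over time. Calls over all genes under the same omissions were 69 to 344 at 1 hr (140 with none left out), 228 to 2170 at 3 hr (1155), 1 to 67 in the interaction (11) and 5473 to 7500 in LTP slices over time (6676), and the omissions that gave 1 member at 1 hr and 2 at 3 hr were those with 344 and 2170. The animal block changed no call of a member, for example Hes1 at 3 hr was -0.32 (edgeR adjusted p = 0.0587) with the replicate block. Several values changed sign, all without a call, most of them near 0 but also Hes5 at 1 hr (0.66) and Notch3 over time (0.39 in both treatments). At 1 hr these were Notch1 at -0.241 with all libraries, -0.209 with the replicate block and all libraries, -0.0448 with GC and length offsets, -0.0541 with the replicate block and offsets and -0.00482 in the 4 group model, Notch2 at -0.0212 with all libraries and -0.0115 with the replicate block and all libraries, Notch3 at 0.0201 with limma-voom, 0.148 with the replicate block and 0.0655 with the block and offsets, Hes5 at -0.162 and -0.0259 and Hey1 at -0.00199 and -0.003 with all libraries, without and with the replicate block. At 3 hr Notch2 was -0.0402 with offsets and -0.0438 with the replicate block and offsets. In the interaction Notch2 was 0.0918 and 0.0707 and Notch3 0.183 and 0.158 with all libraries, without and with the replicate block. With offsets, Notch3 was -0.0212 and Hey1 -0.102 in control slices over time and Notch3 -0.0654 in LTP slices. Leaving out 1 library gave signs of both kinds, again without a call. At 1 hr the ranges were -0.0646 to 0.0749 for Notch1, -0.249 to 0.285 for Notch3, -0.279 to 0.037 for Notch4 and -0.0139 to 0.0604 for Hey1. At 3 hr they were -0.0441 to 0.215 for Notch2, -0.141 to 0.136 for Notch3, -0.15 to 0.0474 for Notch4 and -0.156 to 0.477 for Heyl. In the interaction they were -0.173 to 0.0706 for Notch2, -0.321 to 0.216 for Notch3, -0.133 to 0.181 for Notch4 and -0.541 to 0.265 for Heyl. Over time they were -0.218 to 0.0958 for Notch4 in control slices, and -0.109 to 0.0805 for Notch4 and -0.063 to 0.0118 for Hey1 in LTP slices. The cause was not tested. With a filter of 10 counts in every library Hes5 was not fitted at 1 hr or in the 4 group model, and it has no DESeq2 value at 1 hr and in the interaction, nor has Heyl in the interaction, since the adjusted p was NA. Over all genes, calls at 1 hr moved from 140 to 347 without a filter and 302 with the replicate block and offsets, at 3 hr from 1155 to 618 at an adjusted p under 0.05, and in the interaction from 11 to 80 with DESeq2, 102 without a filter, 34 with offsets, 25 with the replicate block and offsets and 7 with the replicate block and all libraries. Calls in the pathway list at 3 hr moved from 7 to 4 at an adjusted p under 0.05 and to between 1 and 9 with 1 library left out, and to 10 with the replicate block, which added Hes6, Tle2 and Lfng, and with the replicate block and offsets Id1, Tle2 and Lfng were added and Aak1 lost. Calls over all genes at 3 hr were 1662 with the replicate block and 1603 with the replicate block and offsets. Depth limits Hes5 (7 to 42 counts a library) and Heyl (17 to 57).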
